A study of Homo sapiens with 8 samples.

Results

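The integrated stress response factors and eIF2 kinases described here are 10 of the 38551 genes with counts in the table, chosen by gene symbol for their known roles. They are the transcription factors ATF4, ATF5, ATF3 and DDIT3 (also called CHOP), the pseudokinase TRIB3, the phosphatase subunits PPP1R15A and PPP1R15B, and the kinases EIF2AK1, EIF2AK3 and EIF2AK4. Polyadenylated RNA was sequenced from MOLM-13 cells after 72 h with 100 nM PR-957 (ONX-0914), which inhibits the PSMB8 subunit of the immunoproteasome, or with DMSO, the diluent, in 4 libraries each. MOLM-13 is a human acute myeloid leukemia line with a rearranged KMT2A gene, which controls and treated cells share, so all values come from 1 line. The labels do not say whether libraries came from separate cultures, so the p-values measure the spread between these samples, which may be technical.

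In the integrated stress response, separate kinases sense different stresses and phosphorylate the translation initiation factor eIF2, which lowers protein synthesis in general while a few mRNAs with upstream open reading frames, ATF4 among them, are translated more. ATF4 protein then binds, with C/EBP-family partners, to genes for amino acid synthesis and transport and to other transcription factors, and phosphatase subunits complete a feedback loop by directing the removal of the phosphate. Sequencing of mRNA measures neither the phosphorylation of eIF2 nor the amount of any protein. In a bulk culture it also cannot tell fewer cells with a transcript from less of it per cell.

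Sequences from RefSeq (GRCh38.p14) are shown for the promoters that hold a motif bound by ATF4 or related factors, since 6 of the 10 genes fell together. The windows ran from 250 bases before to 50 bases after each transcript start, and 9 of the 10 genes had at least 1 window, with 16 windows in all and none for EIF2AK1. On either strand, 2 motifs were sought, the C/EBP-ATF response element written TGATGNAA and the cyclic AMP response element written TGACGTCA. The matches are in capitals, each in a stretch of 30 bases read on the strand of the gene.
PPP1R15B, chr1:204412026-204412055, minus strand, C/EBP-ATF response element: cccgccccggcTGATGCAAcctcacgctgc
ATF3, chr1:212565205-212565234, plus strand, C/EBP-ATF response element: aaaggtcaggaTGATGGAAggctgtcatat
PPP1R15A, chr19:48872352-48872381, plus strand, cyclic AMP response element: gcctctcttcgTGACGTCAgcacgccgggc

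The first base of the match was at position -227 from the transcript start for PPP1R15B, -191 for ATF3 and -58 for PPP1R15A. The C/EBP-ATF response element was in a window of 2 of the 9 genes, or 12.5% of their windows, against 2.05% of the windows of all tested genes and 3.62% of all windows. The cyclic AMP response element was in 1 of the 9, or 6.25% of windows, against 2.75% for tested genes and 1.85% for all. Of the 3 genes with a match, ATF3 and PPP1R15A fell upon PR-957 treatment and PPP1R15B was not called. The genes that fell most, TRIB3, ATF5 and DDIT3, had neither string of letters in these windows. A match describes the letters of a window and does not show binding, and the RefSeq starts can differ from those of the gene models in the count table. The PPP1R15B match lies within its model there (chr1:204398684-204412454, minus strand), downstream of the start of that model.

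The libraries held 16675036 to 23111223 counts, and 3 counts, taken as the limit of detection, equal 0.131 to 0.188 counts per 1000000 counts of the library (CPM), which covers counting error only. Each of the 10 myeloid markers had counts in every library, and their summed level was 1672 to 1752 CPM with DMSO and 2353 to 2599 CPM with PR-957. LYZ alone ranged from 2477 to 18286 counts over the libraries, so the sum does not show that the markers rose together. Among markers of other cell types, the lymphoid sum was 0.939 to 1.61 CPM against 0.887 to 1.64 CPM with CD3E at 0 throughout. The erythroid sum was 0.167 to 0.250 against 0.469 to 0.867 CPM. The list taken as epithelial and stromal summed to 58.7 to 83.6 against 90.7 to 93.9 CPM. Most of it was PECAM1 (681 to 1864 counts per library) and KRT8 (133 to 436). PECAM1 is not restricted to epithelial and stromal cells, so this sum is no measure of them. Mitochondrially encoded genes took 2.28% ± 0.340 (SD, n = 4) of counts with DMSO and 4.70% ± 0.449 with PR-957, and ribosomal protein genes 18.6% ± 0.597 and 14.7% ± 0.732 (exact two-sided permutation test, p = 0.0286, the smallest that 4 against 4 can give, adjusted p = 0.0381 for each). The part of these measures in the results for the 10 genes was not tested.

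All 10 genes passed the filter on low counts, and 6 were lower, 1 higher and 3 not called upon PR-957 treatment (edgeR quasi-likelihood test, adjusted p under 0.05 over 13179 genes). Among all tested genes 46.6% were called, 23.5% lower and 23.1% higher. These were 3098 lower and 3045 higher genes, against 2353 and 4066 when libraries were scaled by their totals alone, which left the calls of the 10 as they were. The median log2 fold change was -0.82 over the 10 genes and 0.003 over all tested genes. DMSO and PR-957 libraries did not overlap for 8 of the 10, beside 42.5% of all tested genes. The 4 transcription factors, TRIB3 and the inducible phosphatase subunit PPP1R15A were the genes that fell. The 3 kinases had log2 fold changes from -0.17 to 0.19.

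**Figure D1:**
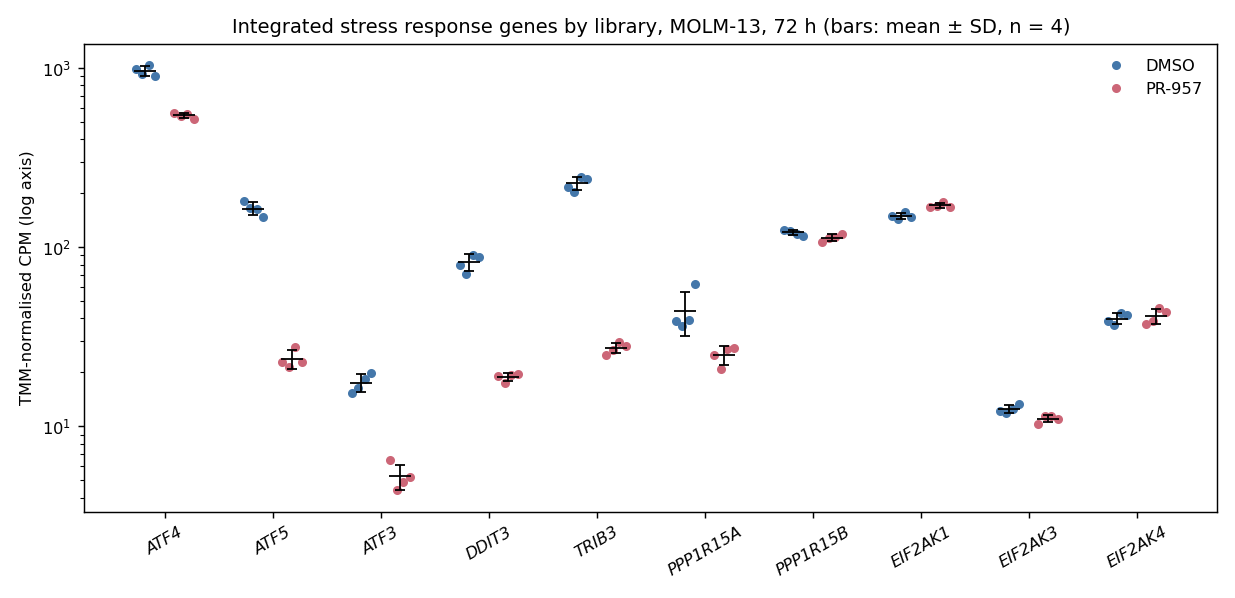
TMM-normalised CPM (log axis) of the 10 genes in each library, with bars for mean ± SD of 4 libraries. The PR-957 points of ATF4, ATF5, ATF3, DDIT3 and TRIB3 lie below every DMSO point, and DMSO replicate 4 stands above the other DMSO libraries for PPP1R15A. Heights of different genes are not corrected for length.

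ATF4, the central transcription factor of the response, had 993, 925, 1036 and 899 CPM in DMSO replicates 1 to 4. With PR-957 it had 563, 537, 557 and 522 CPM. The lowest DMSO library was thus well above the highest PR-957 library, and both groups were tight. The mean fell from 963 ± 62.7 to 545 ± 18.9 CPM (SD, n = 4), a log2 fold change of -0.82 (SE 0.06, 95% interval -0.94 to -0.70, adjusted p = 1.42e-09) or 1.77-fold lower. Of all tested genes, 551 had a lower log2 fold change, which put ATF4 within the lowest 4.19%. The change of ATF4 mRNA was still smaller than those of TRIB3, ATF5 and DDIT3. The gene lies at chr22:39514494-39522686 on the plus strand (hg38). Its model in the count table has 3 exon blocks, and 47.2% of the exonic bases, all within 1 long upstream exon, are shared on the same strand with MIEF1, which had 133 to 250 counts per library.

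ATF5, a close relative of ATF4 whose mRNA is likewise translated preferentially when eIF2 is phosphorylated, had 180, 166, 164 and 147 CPM in the DMSO libraries. The PR-957 libraries had 23.0, 21.3, 27.8 and 22.8 CPM. All treated libraries were far below the lowest control. ATF5 changed by -2.79 on the log2 scale (SE 0.08, 95% interval -2.96 to -2.62, adjusted p = 1.68e-14), 6.90-fold lower, and 39 tested genes had a lower one. ATF5 (chr19:49928702-49933936, plus strand) shares 179 exonic bases with IL4I1 and NUP62 on the opposite strand, which had 21 to 97 and 2170 to 4111 counts per library.

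ATF3, an immediate early transcription factor that can repress the promoters it binds, was scarce. It had 15.3, 16.4, 18.3 and 20.0 CPM with DMSO, and 6.46, 4.44, 4.89 and 5.23 CPM with PR-957. The groups did not overlap. On the log2 scale the fold change was -1.74 (SE 0.13, adjusted p = 1.74e-09), 3.35-fold lower. The gene lies at chr1:212565334-212620777 on the plus strand, and the C/EBP-ATF response element printed above lies upstream of that interval.

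DDIT3 encodes CHOP, which drives genes tied to cell death when stress persists. It had 79.0, 70.9, 90.9 and 87.9 CPM with DMSO and 19.1, 17.4, 19.2 and 19.5 CPM with PR-957. The treated libraries were nearly alike, with a mean of 18.8 ± 0.934 CPM. DDIT3 thus had a log2 fold change of -2.13 (SE 0.08, 95% interval -2.29 to -1.96, adjusted p = 6.38e-14), 4.37-fold lower. DDIT3 (chr12:57516588-57520517, minus strand) shares 68 exonic bases with MARS1 on the opposite strand, which had 5113 to 10945 counts per library.

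TRIB3, a pseudokinase induced by ATF4 and CHOP that restrains both ATF4 activity and AKT signalling, changed most of the 10. Its DMSO libraries had 217, 204, 245 and 240 CPM and its PR-957 libraries 25.1, 26.8, 29.5 and 28.2 CPM. No treated library came near a control. The log2 fold change was -3.05 (SE 0.07, 95% interval -3.20 to -2.90, adjusted p = 1.85e-16), 8.26-fold lower, and 30 of the 13179 tested genes had a lower one. TRIB3 lies at chr20:380629-397559 on the plus strand.

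The phosphatase subunits PPP1R15A and PPP1R15B recruit protein phosphatase 1 to eIF2. PPP1R15A, also called GADD34, is the inducible one, and PPP1R15B, also called CReP, is the constitutive one. PPP1R15A had 38.6, 36.1, 39.3 and 62.6 CPM with DMSO and 25.1, 20.8, 27.2 and 27.4 CPM with PR-957. DMSO replicate 4 stood apart from the other controls, yet every control was above every treated library. The log2 fold change was -0.82 (SE 0.20, 95% interval -1.29 to -0.35, adjusted p = 0.0123), and with DMSO replicate 4 left out it was -0.60 (adjusted p = 6.39e-06). Fitted on replicates 3 and 4 alone it was -0.91 and no longer passed (adjusted p = 0.0934).

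PPP1R15B had 125, 124, 119 and 116 CPM with DMSO and 106, 112, 115 and 118 CPM with PR-957. The groups overlapped. Its log2 fold change was -0.10 (95% interval -0.21 to 0.01, adjusted p = 0.14), so a fall greater than 0.21 lies outside the interval. Fitted on replicates 1 and 2 alone it was called lower, at -0.19 (adjusted p = 0.0234). PPP1R15A is at chr19:48872392-48876062 on the plus strand, and PPP1R15B at chr1:204398684-204412454 on the minus strand.

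EIF2AK1, the heme-regulated kinase that also relays mitochondrial stress through DELE1, was the gene that rose. It had 149, 145, 157 and 148 CPM with DMSO and 168, 170, 179 and 168 CPM with PR-957. The groups did not overlap, but they lay close together. Its log2 fold change was 0.19 (SE 0.05, 95% interval 0.08 to 0.30, adjusted p = 0.00463), 1.14-fold higher. Replicates 3 and 4 alone gave 0.18, which did not pass (adjusted p = 0.0792). EIF2AK1 (chr7:6022247-6059229, minus strand) shares 11.4% of its exonic bases with AIMP2 on the opposite strand. AIMP2 had 1512 to 2005 counts per library, and its part in the EIF2AK1 values was not tested.

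EIF2AK3, known as PERK, is the kinase of the endoplasmic reticulum membrane that responds to unfolded proteins. It had 12.2, 11.9, 12.4 and 13.4 CPM with DMSO and 10.4, 11.4, 11.4 and 11.0 CPM with PR-957. No treated library reached the lowest control, but the test did not call the gene, with a log2 fold change of -0.17 (95% interval -0.37 to 0.03, adjusted p = 0.144). EIF2AK3 is at chr2:88556740-88627464 on the minus strand, and an antisense gene over 15.9% of its exonic bases had at most 2 counts in any library.

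EIF2AK4, known as GCN2, is the kinase that senses uncharged transfer RNA when amino acids run short. It had 38.5, 36.8, 42.7 and 41.8 CPM with DMSO and 37.0, 38.8, 45.5 and 43.5 CPM with PR-957, at chr15:39934115-40035591 on the plus strand. The groups overlapped in part, with 2 PR-957 libraries above every control. The log2 fold change was 0.05 (95% interval -0.11 to 0.20, adjusted p = 0.646). The remaining eIF2 kinase, EIF2AK2 (PKR), which responds to double-stranded RNA and is not among the 10, had 37.0 ± 2.32 and 33.9 ± 3.68 CPM (log2 fold change -0.13, adjusted p = 0.195).

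**Figure D2:**
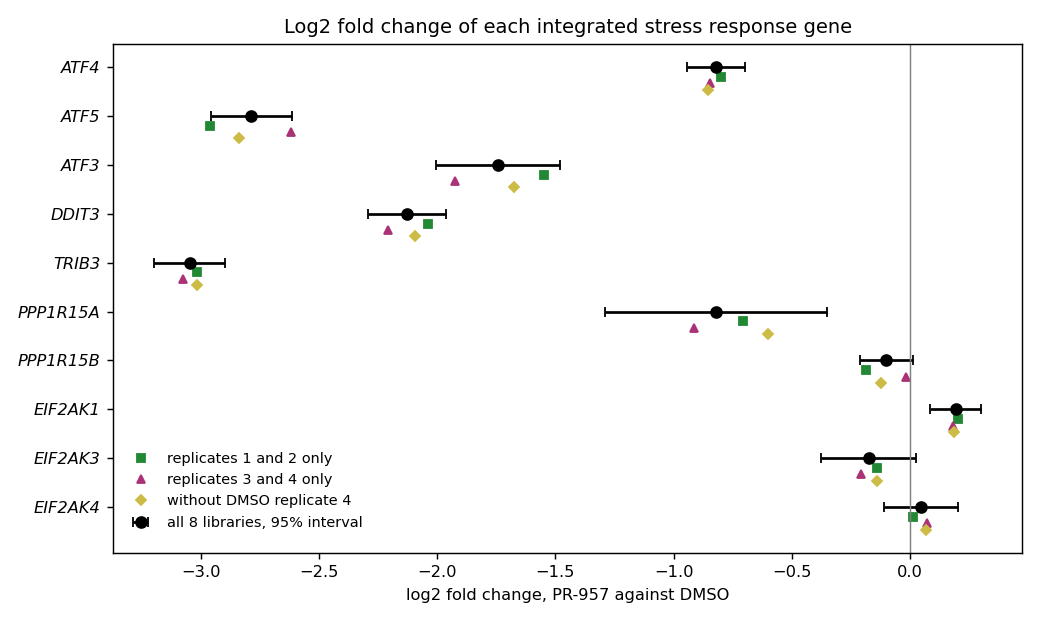
Log2 fold change of each gene upon PR-957 treatment, with the 95% interval from all 8 libraries (circles) and the estimates from replicates 1 and 2 only, replicates 3 and 4 only and without DMSO replicate 4. TRIB3, ATF5, DDIT3, ATF3 and ATF4 keep to the left of 0 in every estimate, and PPP1R15A has the widest interval, -1.29 to -0.35.

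The genes that fell did not fall evenly. Whether one gene moved more than another was tested with the log2 ratio of their counts per kilobase within each library, which does not depend on how libraries are scaled. Each of 6 of the 7 ratios separated the groups completely (exact two-sided permutation test over 70 splits, p = 0.0286, the smallest possible, adjusted p = 0.0333 over the 7). Relative to ATF4, the log2 ratio of ATF5 moved by -1.97, that of DDIT3 by -1.30 and that of ATF3 by -0.92. ATF5, DDIT3 and ATF3 thus each fell further than ATF4 itself.

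The ratio of TRIB3 to DDIT3 was nearly constant among the controls, with a mean log2 of 0.02 ± 0.04 (SD, n = 4), and was -0.91 ± 0.10 with PR-957. The ratio of PPP1R15A to PPP1R15B moved from 0.05 ± 0.41 to -0.64 ± 0.17, with the highest treated value at -0.54 and the lowest control at -0.24. Inducible and constitutive phosphatase subunits therefore shifted against each other in the direction of the latter. DMSO replicate 4 had the highest control ratio, 0.65, and without that library the shift of -0.68 became -0.48. Among the kinases, EIF2AK1 gained 0.37 on EIF2AK3, from 3.66 ± 0.08 to 4.02 ± 0.05. The ratio of EIF2AK4 to EIF2AK3 moved by 0.22 and its groups overlapped (exact permutation p = 0.0571, adjusted p = 0.0571).

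**Figure D3:**
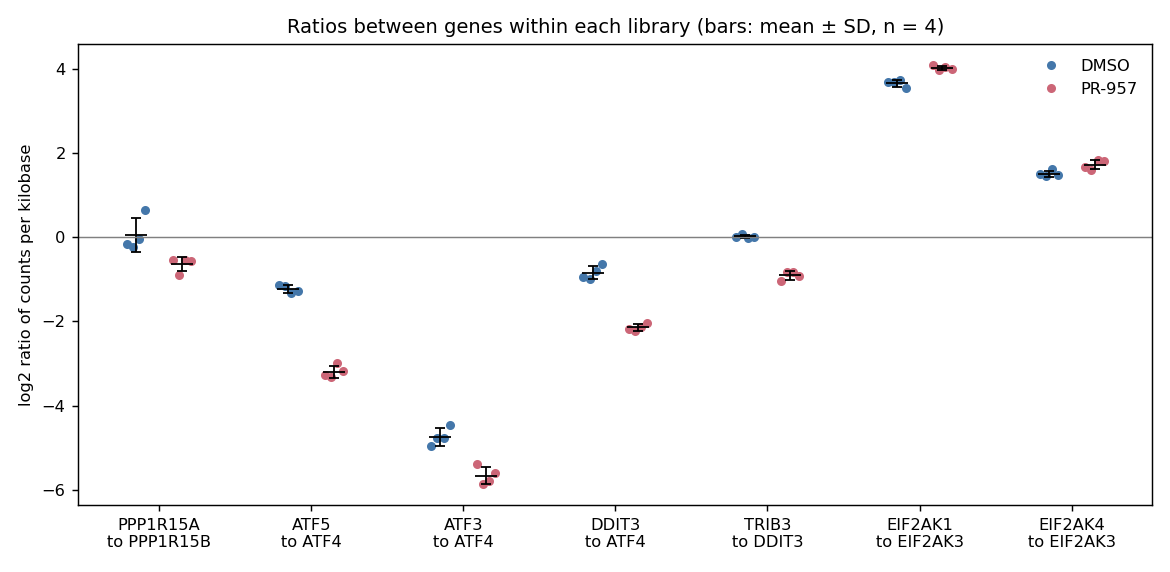
Log2 ratio of counts per kilobase for 7 pairs of genes in each library, with bars for mean ± SD of 4 libraries. The DMSO and PR-957 points are separate for 6 pairs and overlap for EIF2AK4 to EIF2AK3, and the ratio of TRIB3 to DDIT3 moves from 0.02 to -0.91.

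Levels were compared between genes as TPM, in which counts are divided by the exonic length in the count table and scaled to the same sum in every library. With DMSO the order was ATF4 at 267 ± 10.6 TPM (SD, n = 4), TRIB3 at 151 ± 12.5, DDIT3 at 149 ± 15.5, ATF5 at 114 ± 7.82, EIF2AK1 at 68.5 ± 1.45, PPP1R15A at 39.8 ± 11.9 and PPP1R15B at 37.4 ± 1.48 TPM. EIF2AK4 at 15.4 ± 1.04, ATF3 at 10.0 ± 1.30 and EIF2AK3 at 5.43 ± 0.361 TPM were lowest. Of these neighbours, the ranges of TRIB3 and DDIT3 overlapped, and so did those of PPP1R15A and PPP1R15B. Untreated cells thus held 4 inducible members of the response above the most abundant kinase. ATF4 exceeded 96.9% of all tested genes in TPM, TRIB3 94.1%, DDIT3 94.0% and ATF5 92.1%.

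With PR-957, ATF4 at 157 ± 4.20 TPM was still first and EIF2AK1 at 81.2 ± 4.09 TPM was next. PPP1R15B at 36.3 ± 2.67 and DDIT3 at 35.5 ± 2.20 TPM overlapped in range. Below them each neighbour overlapped the next, from PPP1R15A at 23.4 ± 3.17 through TRIB3 at 18.9 ± 1.81 and ATF5 at 17.2 ± 2.24 to EIF2AK4 at 16.6 ± 2.01 TPM. EIF2AK3 at 4.99 ± 0.351 and ATF3 at 3.10 ± 0.432 TPM came last, with ATF3 now under every eIF2 kinase at these lengths. TRIB3 and ATF5 had moved to exceeding 61.6% and 59.2% of tested genes, while ATF4 still exceeded 93.9%.

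The order depends on the length used. The GENCODE canonical transcript length of these genes was then used in place of all their exons, an alternative chosen after seeing the data. The scaling kept the exonic lengths of all genes, so the resulting values order these genes but are not TPM. ATF4 stood first at 1452 ± 57.4 with DMSO and 853 ± 22.8 with PR-957. Its model is 7716 bases long and the canonical transcript 1419. In the controls ATF3, at 19.3 ± 2.50, then stood above EIF2AK4 at 15.4 ± 1.04 with no overlap, the reverse of their order by exonic length. PPP1R15A and PPP1R15B changed places and still overlapped, and ATF5 overlapped DDIT3. After treatment ATF3 stood above EIF2AK3 with overlapping ranges, and ATF5, TRIB3 and PPP1R15A followed each other in that order, each overlapping the next.

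EIF2AK1 made up most of the mRNA of the eIF2 kinases. Of the summed TPM of the 4 kinases, PKR included, it took 70.6% ± 1.02 with DMSO and 73.8% ± 1.37 with PR-957 (SD, n = 4). EIF2AK4 took 15.9% and 15.0%, EIF2AK2 7.94% and 6.63%, and EIF2AK3 5.59% and 4.54%. The ranges of the groups were apart for EIF2AK1, EIF2AK2 and EIF2AK3, and overlapped for EIF2AK4. A larger share of EIF2AK1 lowers the other shares by itself, and neither EIF2AK2 nor EIF2AK3 was called in the test of single genes. No test was run on these shares.

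**Figure D4:**
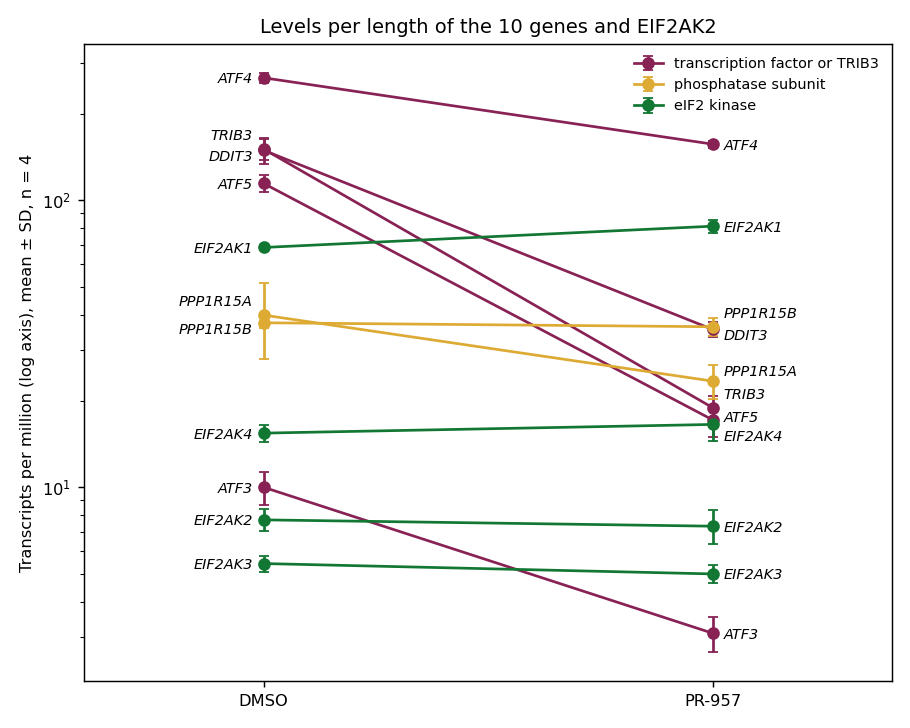
TPM (log axis, mean ± SD of 4 libraries) of the 10 genes and EIF2AK2 with DMSO and with PR-957. Lines of ATF5, TRIB3, DDIT3 and ATF3 drop past some of the kinases, EIF2AK1 ends second at 81.2, and ATF4 stays first in both groups.

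The next lists hold genes that act upstream of ATF4, with log2 fold changes between -0.51 and 0.50, and their counts stand beside the 46.6% of all tested genes that were called. Of the 8 subunits of eIF2 and of its exchange factor eIF2B, 4 rose and 3 fell, with a median log2 fold change of 0.14. EIF2S1, the alpha subunit that the kinases phosphorylate, rose by 0.50 (adjusted p = 5.56e-06), whereas the beta and gamma subunits EIF2S2 and EIF2S3 fell by 0.42 and 0.43 on the log2 scale. Without DMSO replicate 4, 3 subunits rose and 3 fell. Of 7 genes for PKR and regulators of the eIF2 kinases, 1 rose and 2 fell (median -0.13), a share near that of all tested genes. GCN1, a co-activator of GCN2, rose by 0.29 (adjusted p = 0.000246), and IMPACT, an inhibitor of GCN2, changed by -0.51 (adjusted p = 1.01e-05). DELE1, which activates EIF2AK1 on mitochondrial stress, had -0.25 (adjusted p = 0.00197). With DMSO replicate 4 left out, 3 genes of this list fell. Among the 3 catalytic subunits of protein phosphatase 1, PPP1CC and PPP1CB fell, by 0.29 and 0.27 on the log2 scale, and none rose.

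Genes that act with ATF4 or under it were counted beside the 23.5% of all tested genes that were lower and the 23.1% that were higher. Of 10 partners and other regulators of ATF4, 5 fell, beside 23.5% of all tested genes, and 1 rose, beside 23.1% (median -0.46). The share called in either direction was not far from the 46.6% of all tested genes. NUPR1, a stress-induced chromatin protein, changed by -3.45 on the log2 scale (adjusted p = 4.4e-08), from 49 to 148 counts per DMSO library to 7 to 8 counts per PR-957 library. CEBPB, a dimer partner of ATF4, had -1.52 (adjusted p = 0.00257), or -2.17 from replicates 1 and 2 alone and -0.98 from replicates 3 and 4 alone. CREBRF, a regulator of CREB3-family factors, had -0.88 (adjusted p = 0.000181).

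Of 21 ATF4 target genes outside the 10, all 19 that could be tested fell, with log2 fold changes from -4.01 to -0.57 and a median of -1.76. These were STC2 at -4.01 and CHAC1 at -3.55, which encode a secreted glycoprotein and a glutathione-degrading enzyme, GDF15, a secreted stress cytokine, at -3.35, and 16 others. GDF15 rested on 7 to 9 counts per PR-957 library. The other 2, SESN2 and FGF21, had 9 and 0 counts over all libraries. Lists of this kind were chosen with earlier results of these data known, so the count is a description. Of the 21 listed targets 19 had a promoter window, and these need not be the 19 that were tested. The C/EBP-ATF response element was in a window of 6 of them, or 31.6%, beside 2.77% of the tested genes with a window. It was in 24.0% of their windows, beside 2.05% of the windows of tested genes. The cyclic AMP response element was in none.

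Of 5 CHOP targets, 4 fell and none rose (median -0.31). The pro-apoptotic genes BBC3 and PMAIP1 had log2 fold changes of -1.17 and -1.08, and the death receptor gene TNFRSF10B had -0.31. Genes listed for the ATF6 and XBP1 arm of the unfolded protein response split, with 8 of 17 higher and 7 lower (median 0.05, and -0.01 without DMSO replicate 4). The endoplasmic reticulum proteins CRELD2 and SDF2L1 rose by 1.20 and 1.17, and HERPUD1, a component of protein degradation from that compartment, had -1.06. The difference between these lists was not tested.

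**Figure D5:**
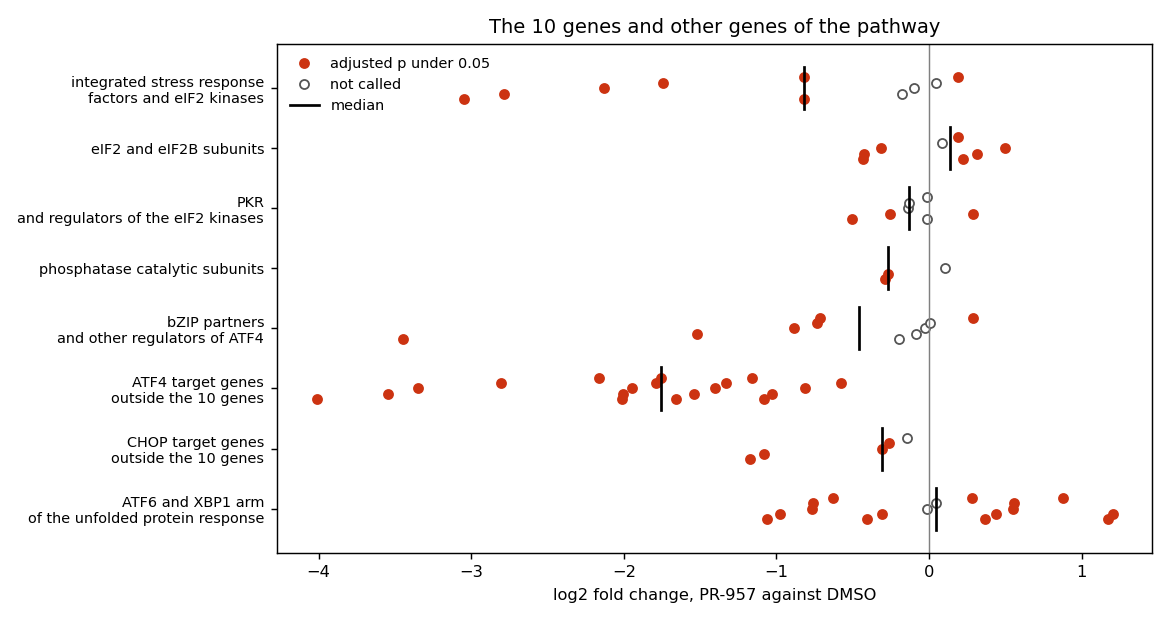
Log2 fold change upon PR-957 treatment of the 10 genes (top line) and of 7 lists of other genes of the pathway, with called genes filled, genes that were not called open and a bar at each median. The 19 ATF4 targets all lie left of 0 with a median of -1.76, and the 17 genes of the ATF6 and XBP1 arm lie on both sides.

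Within groups, the genes whose log2 CPM varied most like that of ATF4 over the 8 libraries, once group means were taken out, were PSMD13, POLR2L, RHBDD2, PHB and UCP2, with Pearson r from 0.981 to 0.987 and Spearman rho from 0.905 to 1 among 13169 genes compared. After the 2 libraries farthest from the median were left out, r was 0.957 to 0.982. The 5 genes were picked for the highest r of the 13169 in these same libraries, so high values follow from the choice and test nothing. None of the 5 genes is an ATF4 partner or target in the lists above. They moved both ways upon treatment, from a log2 fold change of -0.42 for UCP2 to 0.90 for POLR2L. The libraries share their scaling and depth, and without DMSO replicate 4 only PSMD13 remained among the 5 nearest.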

How the data were processed

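The unit used was raw counts. The deposited table holds the fragment counts per gene that the authors made from paired-end reads (150 bases, NovaSeq 6000, TruSeq RNA kit), trimmed with Trimmomatic 0.39, aligned to hg38 with STAR 2.7.10a and counted with featureCounts 2.0.1 by strand against hg38 RefSeq genes. TruSeq kits may keep strand or not, and the labels do not say which. With a kit that does not, this counting would leave out part of the fragments, and genes that overlap on opposite strands could not be told apart. The counting command names 16 libraries, of which 8 are in the table and 8 were not analysed here. Of 38557 gene rows 6 had no values. A second deposited table holds the authors' own comparison (fold changes and p-values) and was not used.

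Libraries were grouped by their labels, 4 and 4. Counts were scaled by TMM, filtered with filterByExpr (13179 genes, 99.9% of counts) and compared with edgeR 4.0.16 in R 4.3.3 (robust quasi-likelihood test, two-sided, Benjamini-Hochberg). The code was tested on simulated data. Log2 ratios used a prior count of 0.5 and exact permutation tests. Library pairs differed beyond sampling noise (chi-square per gene 3.19 to 14.2), so none was counted as a duplicate. The alternatives were DESeq2 1.42.0, limma 3.58.1 (voom), other scalings and filters, a replicate block, a term for replicates 1 and 2 against 3 and 4, both pairs of replicates alone, a 1.5-fold test and each library left out.

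The 10 genes and the pathway lists were chosen with earlier results of these data known. Named are the 10, EIF2AK2, the 3 largest called changes of each list and the 5 genes most like ATF4. KRT8, PECAM1, LYZ, CD3E, SESN2 and FGF21 were named after their values were seen.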

Additional observations from a re-analysis of the deposited data

Results flagged for a closer look

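PPP1R15A in DMSO replicate 4 was far from the other controls. It had 62.6 CPM, and the nearest control had 39.3 CPM, a gap of 0.880 of the range of the group, above the 95% critical value of Dixon's test for 4 samples. Of 20 groups of values tested (10 genes in 2 groups) this was the 1 that passed, and chance alone passes about 1 in 20. The fold change without that library stands beside the result for PPP1R15A. The same library held the most counts, 23111223, and the lowest share of mitochondrially encoded genes, 1.94%. Their part in the value was not tested.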

How the results depend on the processing

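Among the 10 genes, 6 lower and 1 higher was the count under every other tool, scaling and filter tried, with the term for replicates 1 and 2 against 3 and 4, and without each library in turn. The settings below changed it. Replicates 1 and 2 only gave 7 lower, PPP1R15B included, and 1 higher. Replicates 3 and 4 only gave 5 lower, without PPP1R15A, and 0 higher, without EIF2AK1, with fewer libraries in each fit. The 1.5-fold test gave 5 lower and 0 higher, and over all genes 220 higher and 320 lower, a stricter question by its construction. Of 684 fold changes of 36 named genes under the other settings, 3 changed call, those of PPP1R15B, PPP1R15A and EIF2AK1 in the pairs of replicates. The 1.5-fold test is not part of these 684.

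Over all genes, 3045 were higher and 3098 lower. With library totals alone 4066 were higher and 2353 lower, the median of all genes shifted by 0.0777 on the log2 scale, and the calls of the 10 stayed. Leaving out 1 library gave 2613 to 3125 higher and 2692 to 3162 lower. The ratio of ATF5 to ATF4 moved by -2.16 in replicates 1 and 2 only and by -1.79 in replicates 3 and 4 only, against -1.97; the cause was not tested. With the replicate number as a block, 3513 genes were higher and 3400 lower, and no call of those 36 genes changed. DMSO and PR-957 libraries with the same number correlated at 0.0985 to 0.213 in their deviations from the group means. Of the 8 libraries, 7 correlated best with their own number. Different numbers also correlated positively within replicates 1 and 2 and within 3 and 4 (0.0737 to 0.1135). Across those 2 sets every correlation was negative (-0.1872 to -0.0411). These are hints from the data and not the design. Depth limits NUPR1 and GDF15, with 7 to 9 counts per PR-957 library.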
